A study of Homo sapiens with 4 samples.

Results

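The Notch receptors NOTCH1, NOTCH2 and NOTCH3, the Jagged ligands JAG1 and JAG2, and the transcriptional repressors HES1 and HEY1 were followed through 3 peak lists from chromatin immunoprecipitation and sequencing (ChIP-seq) in the human cell line H69. A peak was counted for a gene when its centre lay within 50 kb of the gene body, with gene bodies given to the kb on genome build hg19. The stretch from 50 kb before to 50 kb after a gene body is called the window of the gene here. The 7 windows held 42 of the 61551 peaks of the series, of which 38 were TEAD1 peaks, 4 were peaks of the YAP antibody named Avruch, and 0 were peaks of the YAP antibody from Santa Cruz. H69 is the name of an immortalised line of human cholangiocytes, the epithelial cells of the bile ducts, and the labels give the name alone. The cells carried no treatment in the labels, and each antibody was used on 1 library, so no value has a replicate and no comparison between antibodies could be tested. A library with an unrelated IgG was also made and was not analysed here.

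Notch receptors are single-pass membrane proteins that are cut when a ligand on a neighbouring cell binds them. The freed intracellular domain enters the nucleus, joins the DNA-binding protein RBPJ and switches on targets such as HES1 and HEY1, which are repressors that hold cells back from differentiation. In the liver this signal steers progenitor cells to bile ducts, and mutations in JAG1 or NOTCH2 cause Alagille syndrome, in which bile ducts are sparse. YAP is a coactivator of the Hippo pathway with no DNA-binding domain of its own. It reaches DNA mostly through TEAD proteins, of which TEAD1 is a member.

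The TEAD1 list holds 48962 peaks, the Avruch list 10118 and the Santa Cruz list 2471. The score of a peak is the authors' own value without a stated unit, and it is used only to rank peaks within a list. The depth of the libraries is unknown, so a gene without a peak may still be bound below what its library could show. To give each count a background, the placed chromosomes were cut into consecutive windows as long as the window of the gene. These background windows include gene-poor stretches and stretches of 2.5 Mb or more without a peak in any list. Such stretches lower the background.

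Promoter sequences are shown for the 4 genes whose TEAD1 peaks came nearest to a gene start, NOTCH1, NOTCH2, JAG1 and HES1. Each is the 250 bases before the start, from RefSeq on build GRCh38.p14, written in the direction of transcription. As the peaks lie on hg19, peak and promoter were not aligned base by base. Capitals mark matches to TGGGAA, the core of the RBPJ site.
NOTCH1: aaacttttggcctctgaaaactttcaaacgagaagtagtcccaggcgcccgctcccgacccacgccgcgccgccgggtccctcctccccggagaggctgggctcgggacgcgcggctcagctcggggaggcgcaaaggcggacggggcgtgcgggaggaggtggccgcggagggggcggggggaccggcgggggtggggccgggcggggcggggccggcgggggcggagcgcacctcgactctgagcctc
NOTCH2: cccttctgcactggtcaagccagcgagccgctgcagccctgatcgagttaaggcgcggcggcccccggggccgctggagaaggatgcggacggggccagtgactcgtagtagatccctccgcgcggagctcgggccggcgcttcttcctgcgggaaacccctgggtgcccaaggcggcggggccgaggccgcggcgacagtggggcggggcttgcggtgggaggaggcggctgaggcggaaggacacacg
JAG1: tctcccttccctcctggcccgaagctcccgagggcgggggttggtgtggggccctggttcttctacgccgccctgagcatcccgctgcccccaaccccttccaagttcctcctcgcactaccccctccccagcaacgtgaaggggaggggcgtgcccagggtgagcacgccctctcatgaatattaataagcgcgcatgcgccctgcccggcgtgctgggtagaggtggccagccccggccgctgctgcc
HES1: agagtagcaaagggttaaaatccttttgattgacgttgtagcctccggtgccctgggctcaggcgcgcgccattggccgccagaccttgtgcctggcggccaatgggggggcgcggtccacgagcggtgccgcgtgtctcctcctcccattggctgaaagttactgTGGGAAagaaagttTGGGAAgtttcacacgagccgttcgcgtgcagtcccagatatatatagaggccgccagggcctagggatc

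The HES1 promoter was alone in carrying TGGGAA among the 6 member promoters in the table, HEY1 having no entry used here. Its copies begin 84 and 70 bases before the start, both on the strand shown. Over all 35116 promoters of the table, 20.8% held TGGGAA or its reverse complement TTCCCA in these 250 bases. The TEAD motif GGAATG, with its reverse complement CATTCC, was in 0 of the 6 member promoters and in 11.9% of all promoters. The AP-1 motif TGANTCA, which is its own reverse complement, was in 0 of the 6 and in 6.57% of all. These matches describe letters only, and whether any of them is bound was not tested. Promoters of the members were rich in G and C, from 59.2% in HES1 to 81.6% in JAG2, beside a median of 58.0% over all promoters.

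All 7 genes had at least 1 TEAD1 peak, from 2 at HES1 and HEY1 to 15 at NOTCH1. At least 1 TEAD1 peak was also found in 69.3% of all windows of 137 kb, the median length of the member windows, so presence alone sets little apart. The Avruch peaks lay near 3 of the 7 genes, 2 at NOTCH2, 1 at NOTCH3 and 1 at HES1, and 27.7% of the windows of 137 kb held an Avruch peak. No Santa Cruz peak lay near any of the 7, and 7.25% of the windows of 137 kb held a Santa Cruz peak.

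**Figure D1:**
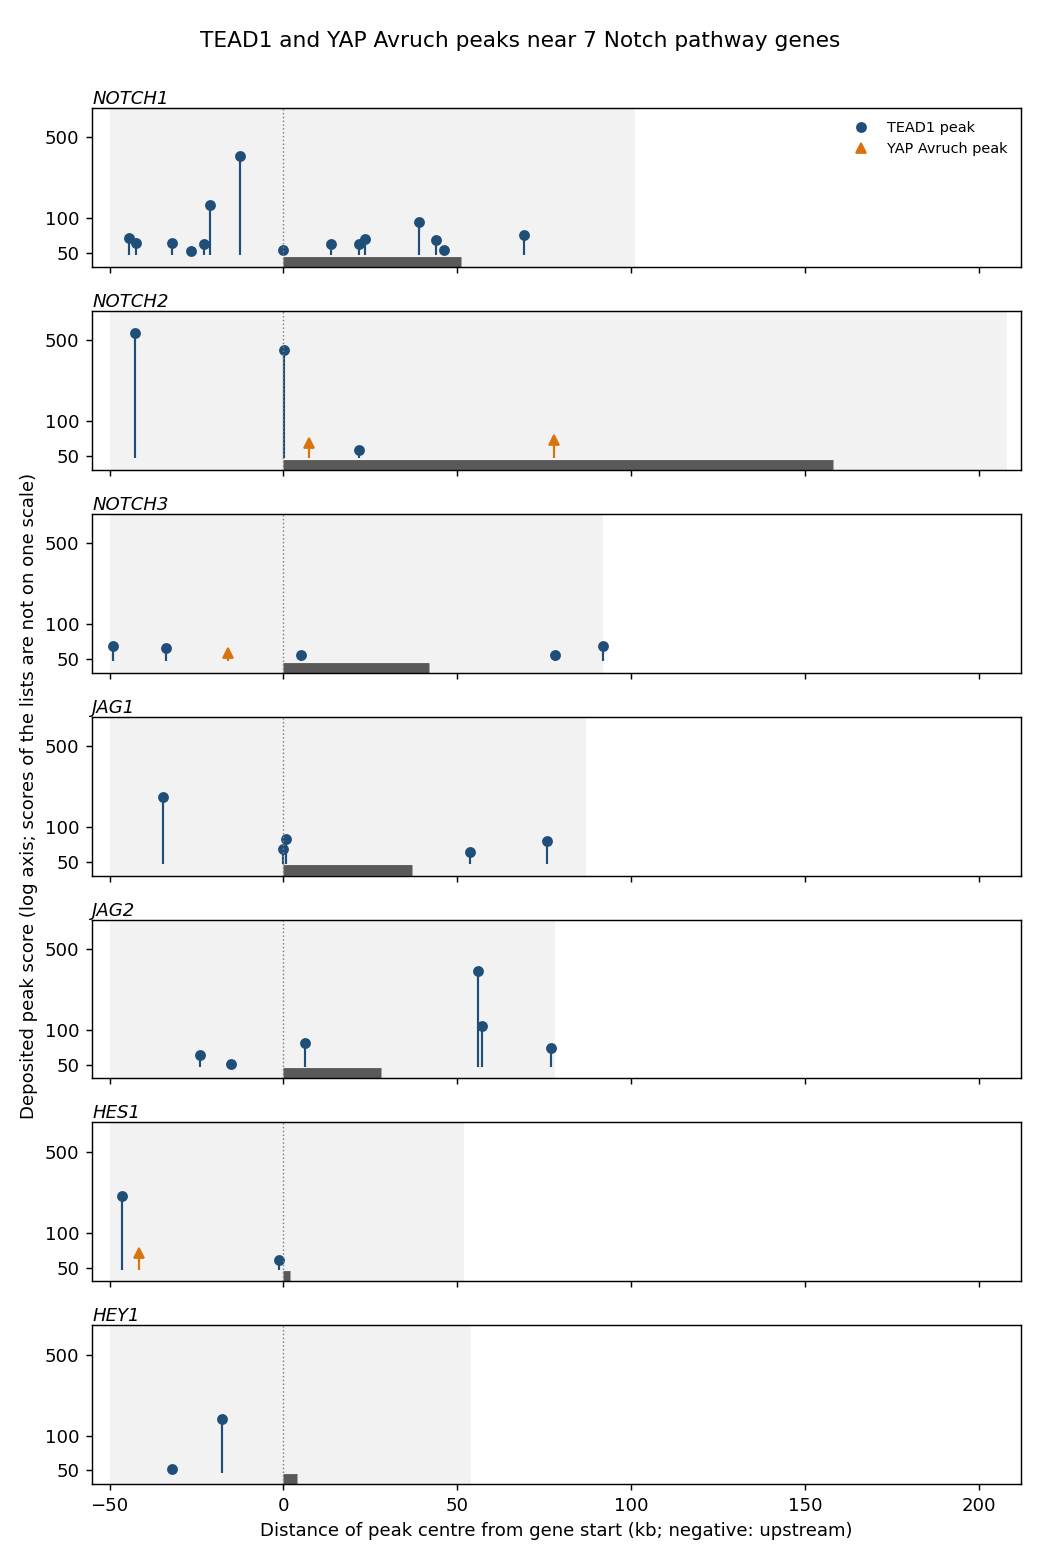
Each panel shows the window of a gene (grey), with the distance of peak centres from the gene start on the horizontal axis (kb, negative upstream) and the deposited score on a logarithmic vertical axis, for TEAD1 peaks (circles) and YAP Avruch peaks (triangles), 1 library each; the dark bar is the gene body. NOTCH1 holds 15 TEAD1 peaks, the highest 12.6 kb upstream, and no triangle shares its place with a circle.

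Among the receptors, NOTCH1 had the most TEAD1 peaks, and its window was the densest of the 7. With 100 kb to each side in place of 50 kb, JAG2 was denser, at 11.0 TEAD1 peaks per 100 kb beside 9.56 for NOTCH1. The 15 NOTCH1 peaks in 151 kb came to 9.93 per 100 kb, beside a mean of 1.61 over all windows of that length. Of those windows, 1.05% held at least as many peaks. The strongest, at chr9:139452340-139452820, lay 12.6 kb upstream of the gene start with a score of 346.2, and 96.6% of all TEAD1 peaks scored lower. The next, at chr9:139460952-139461415, lay 21.2 kb upstream with a score of 129.63. Both opened a run of 7 upstream peaks over 32.1 kb, whose other 5 members scored 51.62 to 67.64.

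Inside the NOTCH1 gene body lay 6 further TEAD1 peaks, in a pair of runs of 3. The run nearer the start, 13.6 to 23.4 kb into the gene, scored 59.7 to 65.65. The run nearer the end, 39.0 to 46.2 kb into the gene, reached 92.43 at chr9:139400837-139401253. A peak of score 53.15 sat at the gene start to within the kb, and a peak of 71.2 lay downstream. So NOTCH1 was marked by many weak peaks around a strong upstream site: its median score was 61.23, below the 67.11 of the whole TEAD1 list. YAP peaks were far from this receptor, the nearest Avruch peak at 106.2 kb and the nearest Santa Cruz peak at 211.4 kb from the gene body.

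NOTCH2 showed the reverse, with few peaks of high score. Its 3 TEAD1 peaks in 258 kb came to 1.16 per 100 kb, and 52.0% of all windows of that length held at least as many. The peak at chr1:120654353-120654753, 42.6 kb upstream, had the highest score of all 38, 573.89, and 98.5% of the TEAD1 list scored lower. The peak over the gene start, at chr1:120611040-120612487, was the widest of the 38 at 1448 bp and scored 415.53. The remaining peak, 21.6 kb into the gene, scored 56.15.

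Both Avruch peaks of NOTCH2 lay inside its gene body. The peak at chr1:120604408-120604631, 7.5 kb into the gene, scored 65.28, and the gap to the nearest TEAD1 peak, the wide peak over the start, was 6.41 kb. The peak at chr1:120534146-120534372, 77.7 kb into the gene, scored 69.15 and was 55.77 kb from a TEAD1 peak. Of the Avruch list, 55.1% and 66.3% of peaks scored lower.

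The whole NOTCH2 window lies in what is called a repeat-like region here. Such regions were unplaced contigs, peak-free stretches of 2.5 Mb or more together with their 2 Mb flanks, and peaks of 1 kb or more in width together with their 50 kb flanks. The first part of NOTCH2 also has near-identical copies on chromosome 1, the human NOTCH2NL genes, and how reads that match several copies were placed was not stated in the material used here. Whether such reads contribute to the NOTCH2 peaks was not tested.

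NOTCH3, a receptor best known from vascular smooth muscle, had 5 TEAD1 peaks, all weak. They scored 64.82, 64.37, 62.57, 54.15 and 53.55, all below the list median of 67.11. Their density was 3.52 per 100 kb, and 15.2% of all windows of that length held at least as many. The peak of 53.55 lay in the gene body 5.0 kb from the start, and the others lay 33.9 and 49.0 kb upstream and 78.0 and 91.9 kb past the start on the downstream side. By their names in the RefSeq table, SYDE1 and HACL2 neighbour NOTCH3 downstream, so the downstream peaks share the window with other genes. The Avruch peak at chr19:15327721-15327859 lay 15.8 kb upstream of the start, scored 56.25 and was 17.86 kb from a TEAD1 peak.

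Of the ligands, JAG1 had 5 TEAD1 peaks at 3.65 per 100 kb, and 14.4% of all windows of its length held at least as many. The strongest stood 34.6 kb upstream, at chr20:10689422-10689827, with a score of 181.75, above 91.5% of the list. A pair of peaks lay within 1 kb of the gene start, chr20:10654114-10654465, 0.7 kb into the gene, with a score of 78.52 and chr20:10654860-10655143, at the start to within the kb, with 64.26. No other member had more than 1 TEAD1 peak within 1 kb of its start. A further pair lay downstream, with scores of 75.91 and 60.83. The nearest Avruch peak was 121.3 kb from the JAG1 gene body.

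JAG2 had 6 TEAD1 peaks at 4.69 per 100 kb, and 9.15% of all windows of its length held at least as many. Its strongest peak lay downstream, as at NOTCH3, while the other 5 genes had theirs upstream. This peak, chr14:105578354-105579499, 1146 bp wide, had a score of 324.92 at 56.1 kb past the start, with a neighbour of 108.33 at 57.0 kb. The peak in the gene body, 6.2 kb from the start, scored 77.36. The upstream peaks scored 60.17 and 50.33, and the outermost downstream peak 69.07. Of these 6 peaks, 4 fell in a repeat-like region, which is drawn around the wide peak itself. The nearest Avruch peak was 61.2 kb from the gene body, outside the window.

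The effectors HES1 and HEY1 had 2 TEAD1 peaks each, all upstream. HES1, the repressor most directly switched on by Notch, had a TEAD1 peak 46.5 kb upstream at chr3:193807285-193807702 with a score of 209.68, above 93.0% of the list. Its other peak, chr3:193852650-193852865, lay 1.2 kb upstream of the start, beyond the promoter bases shown, and scored 57.81. The Avruch peak of HES1, chr3:193812588-193812695, scored 67.19 and came nearest of the 4 to a TEAD1 peak, with a gap of 4.88 kb to the distal site. HEY1, a relative of HES1 with a role in vessels and heart, had peaks 17.8 and 32.0 kb upstream with scores of 140.58 and 51.38, and the nearest Avruch peak was 139.4 kb from its gene body. At least 2 TEAD1 peaks were found in 36.4% of all windows as long as that of HES1 and in 36.9% for HEY1.

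**Figure D2:**
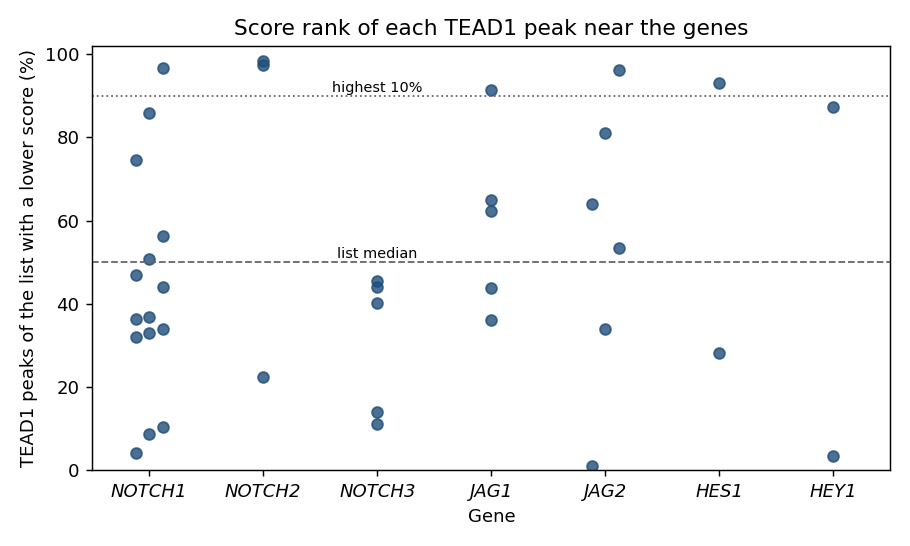
The vertical axis gives the percentage of the TEAD1 list with a lower score, for each of the 38 TEAD1 peaks by gene (1 library; points are shifted sideways only to keep them apart). The 6 points above the dotted line belong to NOTCH1, NOTCH2, JAG1, JAG2 and HES1, and the 5 points of NOTCH3 stay below the dashed list median.

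As a set, the 38 TEAD1 peaks were ordinary in score and width. Their median score was 64.36, beside 67.11 over the list, and 16 of 38 (42.1%, Wilson 95% interval 27.9 to 57.8) scored above the list median. Their median width was 285 bp, beside 274 bp. Among the highest 10% of the list, by definition 10.0% of TEAD1 peaks, were 6 of the 38 (15.8%, 7.44 to 30.4). These were 2 at NOTCH2 and 1 each at NOTCH1, JAG1, JAG2 and HES1, and 4 of the 6 lay upstream of their gene. The intervals for these peaks cover counting error only and take the peaks as independent. Yet 15 of the 38 lie at NOTCH1, most of them in runs, so the intervals may be too narrow.

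**Figure D3:**
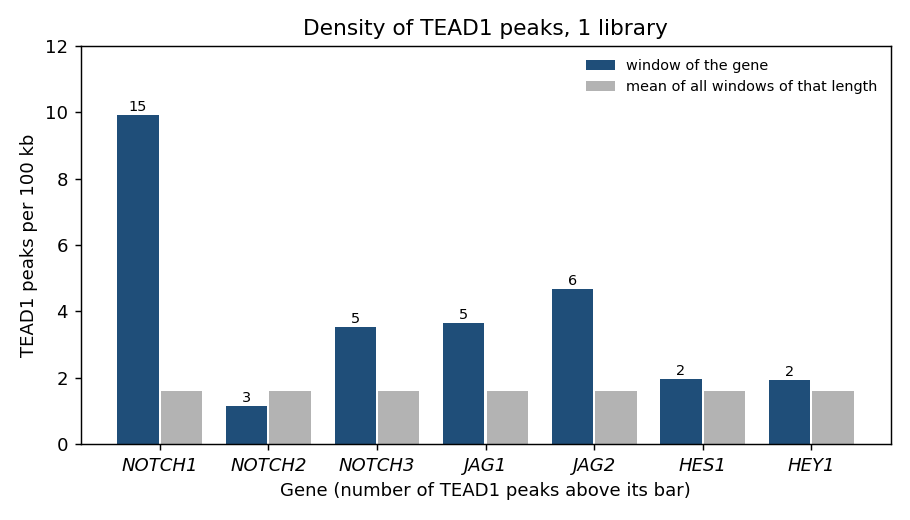
Bars give TEAD1 peaks per 100 kb in the window of each gene (dark, number of peaks above) and as the mean of all windows of that length (light), from 1 library and so without error bars. NOTCH1 reaches 9.93 per 100 kb, NOTCH2 is below the mean with 1.16, and the other 5 genes lie between 1.92 and 4.69.

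By position, 17 of the 38 TEAD1 peaks lay upstream, 4 within 1 kb of a start, 9 elsewhere in a gene body and 8 downstream. Per length this came to 4.86 per 100 kb upstream, 4.04 in gene bodies with their starts and 2.29 downstream. NOTCH1 supplied much of the difference, and without it the densities were 3.33, 2.21 and 2.33. Clusters were runs of at least 3 TEAD1 peaks with gaps of at most 10 kb, and 14 of the 38 peaks lay in them (36.8%, 23.4 to 52.7), beside 29.3% of the list. NOTCH1 held 13 of these 14. Without NOTCH1 it was 1 of 23 (4.35%, 0.772 to 21.0), the outermost JAG2 peak. The upstream NOTCH1 cluster of 7 was among the larger ones, since 10.1% of the 3263 clusters of the list held at least 7 peaks. Repeat-like regions held 7 of the 38 peaks (18.4%, 9.22 to 33.4), all at NOTCH2 and JAG2, beside 7.47% of the list. These regions were drawn from the peak lists themselves, in part around wide peaks of the 38 at these genes. The share is therefore no measure of repeats in the sequence.

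None of the 38 TEAD1 peaks overlapped a YAP peak of either antibody. With 0 of 38, a share of up to 7.89% is allowed, and the share over the whole TEAD1 list was 3.59%, so the absence does not set these genes apart at this number of peaks. Likewise 0 of the 4 Avruch peaks overlapped a TEAD1 peak, beside 19.4% of the Avruch list. The Wilson interval for 0 of 4 reaches up to 49.0%. The gaps between each Avruch peak and its nearest TEAD1 peak were 4.88 kb at HES1, 6.41 and 55.77 kb at NOTCH2 and 17.86 kb at NOTCH3. Their scores, 56.25 to 69.15, lay around the list median of 63.75, and their widths, 108 to 227 bp, around 149 bp.

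The limit of 50 kb leaves neighbours on either side of it. The farthest peak inside was a NOTCH3 TEAD1 peak at 49.88 kb from the gene body with a score of 64.82. Just outside lay TEAD1 peaks at 50.31 kb from NOTCH1 with a score of 51.04, at 51.94 kb from NOTCH3 with a score of 185.89, and at 52.25 kb from JAG2 with a score of 72.25. The NOTCH3 peak just outside thus scored higher than any inside the NOTCH3 window. Other genes of the pathway, such as the Delta-like ligands, RBPJ and the HES and HEY relatives, were not analysed here, because no gene positions on hg19 were used beyond those of the 7 genes. For the same reason exons and introns are not told apart.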

How the data were processed

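ChIP-seq peak lists of 3 libraries of H69 cells were analysed, made with antibodies against TEAD1, YAP (Avruch) and YAP (Santa Cruz). The labels name the first and second as TEAD and YAP, and the fuller names come from the design text of the series. Reads were aligned with Bowtie2 to hg19, per the submitters' processing notes, and MACS called the peaks, per the peak names in the deposited lists. For settings, control library, duplicate handling and read depth, the value is not given in the sources used here. Peak scores, as deposited, carry no unit. A control library used for several lists could affect each of them, and this was not tested.

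From the lists, peaks were counted by centre, starts were read as counted from 0 and are printed counted from 1, and an overlap was at least 1 bp. Background windows ran from the first to the last peak of each placed chromosome. Shares have Wilson 95% intervals, which take peaks as independent. For 0 of 38 the limit given is 3 counts of 38. There was no test, because each antibody had 1 library. Gene strands came from the RefSeq promoter table, and that of HEY1 from general knowledge. Motifs were searched on both strands of the 250 bases before each start. All 7 genes and all their peaks are given. Genes, lists and settings were chosen with earlier results of these data known. The scripts, run with Python 3.11.15 and pandas 2.3.3, were tested on simulated data. Alternatives covered the window, the counting of peaks, score limits, list length, joining, repeat-like regions, overlap rule and cluster gap. Leaving out NOTCH1 or NOTCH2 was added after the values were seen.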

Additional observations from a re-analysis of the deposited data

How the results depend on the processing

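TEAD1 peaks numbered 19 with windows of 20 kb and 77 with 100 kb, against 38. They numbered 16 with the 50% of peaks with the highest scores, 4 with lists cut to the length of the shortest, and 23 without NOTCH1. Avruch peaks numbered 16 with windows of 100 kb and 0 with lists of equal length, against 4, and 2 either without repeat-like regions or without NOTCH2. With lists of equal length, 3 genes had a TEAD1 peak, against 7, and 0 had a YAP peak, against 3. Overlaps between TEAD1 and YAP peaks numbered 9 with windows of 100 kb, all at JAG2, and 0 under every other alternative run. Clustered TEAD1 peaks numbered 6 with gaps of at most 5 kb and 1 without NOTCH1, against 14. Santa Cruz peaks numbered 0 under every alternative run. Most alternatives can only remove peaks, so a count of 0 had to stay at 0 there; windows of 100 kb could add peaks. By TEAD1 peaks per 100 kb, NOTCH1 led with windows of 20 and 50 kb, and JAG2 with 100 kb. Shorter lists and smaller windows hold fewer peaks by construction. The unknown depth limits what a missing peak can say. No paired analysis was possible because each antibody has 1 library.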

Other observations

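Beyond the window of JAG2 lay a dense group of peaks of both proteins, singled out after the values were seen. Between 50 and 100 kb upstream of the gene body, 15 TEAD1 peaks stood within chr14:105689040-105724785, 14 of them in a single cluster. Of these 15, 9 overlapped an Avruch peak, beside 3.59% of the TEAD1 list. The Avruch list held 12 peaks there, 61.2 to 70.7 kb from the start of JAG2 and with scores of 54.71 to 238.49, of which 11 overlapped a TEAD1 peak, beside 19.4% of the list. The 9 TEAD1 peaks scored 50.03 to 214.79. None of these peaks lay in a repeat-like region, and no Santa Cruz peak was found within 100 kb of JAG2. By their names in the RefSeq table, NUDT14 and BRF1 lie on this side of JAG2, and which gene these peaks belong to was not tested.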
